A study of Canis lupus familiaris with 30 samples.

Results

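The transcripts of blood mononuclear cells were compared between the start and the end of 9 weeks on a raw red meat diet. The comparison rests on 4 of the 30 two-colour arrays of the series, chosen by their labels as the arrays that carry RNA of meat-fed dogs from week 9 in the Cy3 channel and from week 0 in the Cy5 channel. All dogs were adult, and per the labels 7 ate only the meat diet, which is high in protein and fat, while 8 ate only a kibbled diet that contains carbohydrate. The groups of this report are meat week 0, meat week 9, kibble week 0 and kibble week 9, where week 0 is the start of the experiment for both diets. Which dog's RNA is on which array is not stated in the labels, and dogs of a diet were sampled repeatedly, so a p-value here covers how arrays vary and not how dogs vary.

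Peripheral blood mononuclear cells (PBMC) are the lymphocytes, monocytes and dendritic cells that stay at the interface when blood is spun over a dense medium. Platelets, young red cells and some neutrophils are commonly carried along with them. Platelets have no nucleus but keep mRNA from the megakaryocyte. Monocytes, B cells and dendritic cells show peptides to helper T cells on MHC class II molecules, which in the dog are called dog leukocyte antigens (DLA). Markers of the expected cells were well above background in all 8 channels of the meat time arrays: both measured T cell markers (CD4 and CD28), the 1 measured B cell marker (MS4A1), 7 of 9 cytotoxic and 7 of 7 monocyte markers. So were 9 of 10 platelet, 4 of 5 erythroid and 5 of 6 neutrophil markers. The same held for 19847 of all 25079 units tested, and a measured marker had already passed a detection filter. These counts therefore do not show which cells were present.

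The 4 meat time arrays all have the same dye order, so on them alone a change over time and a dye effect cannot be told apart. The dye effect of each probe was therefore estimated from 15 arrays of weeks 0 and 9. Beside the 4 meat time arrays these are 4 that set kibble week 0 (Cy3) against kibble week 9 (Cy5), 3 that set the diets against each other at week 0 and 4 that did so at week 9, with both dye orders in either week. The dye effect passed its own test in 7.05% of the units. Values are log2 changes of week 9 over week 0, so that 1 is a doubling and a positive value is higher at week 9. A change given for a single array has the dye effect of that probe removed, and each error is the standard error (SE) of the fit over the 15 arrays.

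Replicate 1 of the meat time arrays stood apart from the others before any gene was looked at. On it 42703 probes in Cy3 and 43411 in Cy5 were well above background, against 26506 to 26653 and 30006 to 31039 on the other 3 arrays. It held 437 spots marked as faulty by the scanner software, against 11 to 13 on the others, and its median signal was 260 in Cy3 and 489.5 in Cy5, against 95 to 96 and 129.5 to 148. Across all units its changes correlated with those of replicates 2, 3 and 4 at r = 0.14, 0.31 and -0.18, while replicates 2, 3 and 4 correlated with each other at 0.44 to 0.63 (a description across units, which are not independent). The counts of calls over all units, and most of the genes described in detail, are given with and without this array. Among the other arrays, replicate 1 of the kibble time arrays had a high local background (160.5 in Cy3 and 306 in Cy5).

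**Figure D1:**
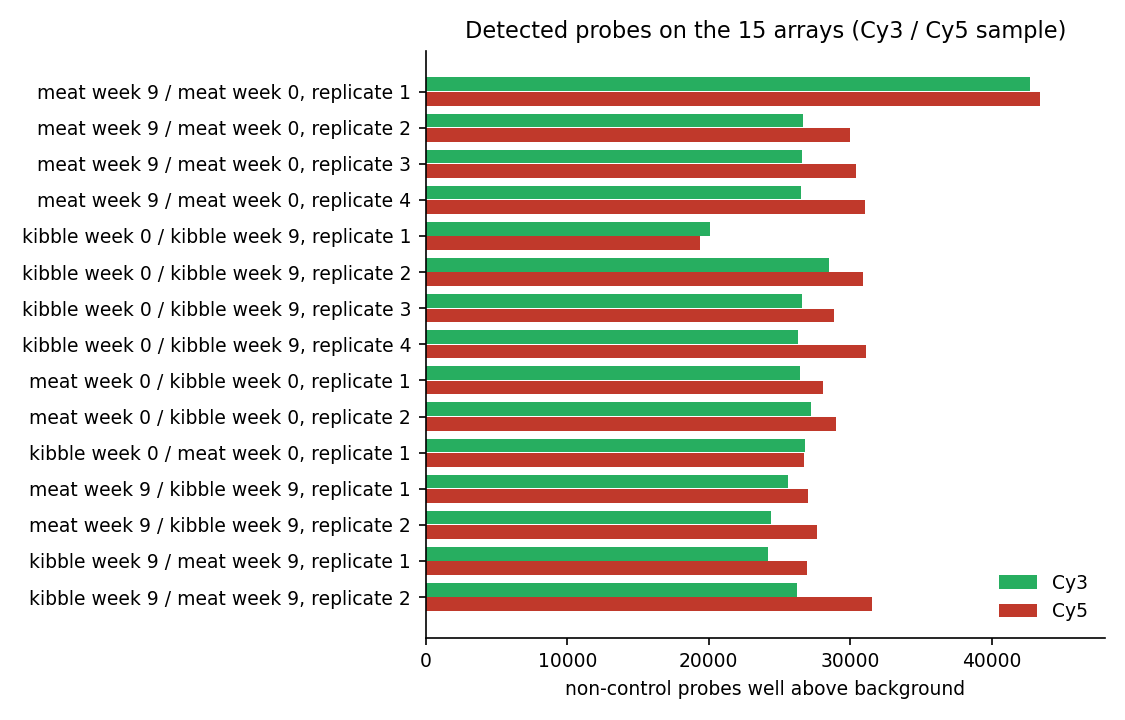
Number of non-control probes well above background in Cy3 (green) and Cy5 (red) on each of the 15 arrays, named by the Cy3 sample and then the Cy5 sample. Replicate 1 of the meat time arrays has 42703 and 43411 detected probes, far above the other 14 arrays, and replicate 1 of the kibble time arrays has the fewest, 20085 and 19416.

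Few transcripts changed between week 0 and week 9 by a margin that held against the spread between arrays. Of 25079 units (a gene or unnamed transcript, each read by its brightest probe), 116 were called, which is 0.463%, at an adjusted p under 0.05 in limma. Of these 76 were higher at week 9 (0.303%) and 40 lower (0.159%). The called changes ran from -2.13 to 1.26, with a median of 0.49 among the higher and -0.41 among the lower. Of the 116, 115 had the same sign on all 4 arrays, against 24.8% of all units. These arrays are in the fit that made the calls, so this partly follows from the selection. The fits that follow reuse arrays of the first, so the calls they share with it are not independent support. Without replicate 1 the count rose to 1269 (5.06%), 577 higher (2.3%) and 692 lower (2.76%), and all 116 were among them. With all 30 arrays of the series in the fit it was 2112 (8.42%), 979 higher (3.9%) and 1133 lower (4.52%), and 110 of the 116 were among them. Without replicate 2, or without replicate 3, limma called 0 units, with 3302 and 3839 at an unadjusted p under 0.05. Without replicate 4 it called 229.

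The count also moved when arrays outside the meat time comparison were left out. Leaving out kibble time replicate 1 gave 432 calls, replicate 2 gave 22, replicate 3 gave 85 and replicate 4 gave 9. Leaving out 1 of the diet arrays gave 540 or 666 calls for the 2 arrays of week 0 with meat in Cy3, 79 for the 1 with kibble in Cy3, 208 and 56 for the 2 of week 9 with meat in Cy3, and 13 and 692 for the 2 of week 9 with kibble in Cy3. The meat time arrays lay on 2 slides: those of slide 2 (replicates 3 and 4) without those of slide 1 gave 6 calls, and those of slide 1 (replicates 1 and 2) without those of slide 2 gave 0. With the slide as a random block 118 units were called, and with a dye effect per slide 0 (3885 at an unadjusted p under 0.05).

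**Figure D2:**
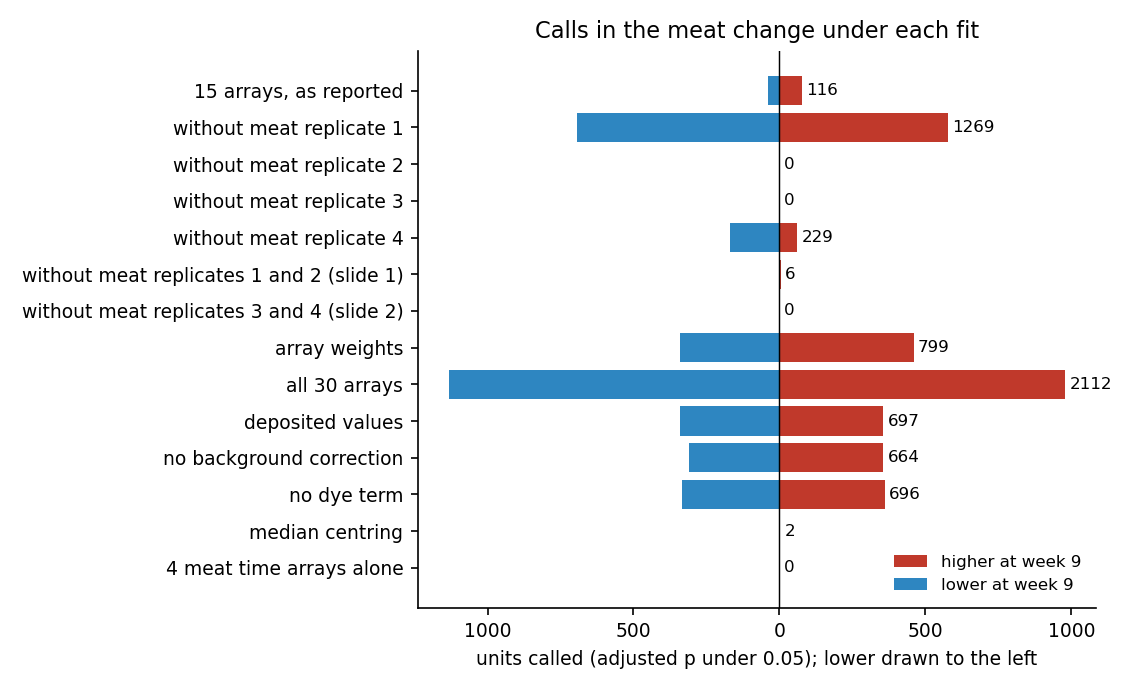
Number of units called in the meat change (adjusted p under 0.05) under 14 fits, with those higher at week 9 drawn to the right, those lower to the left and the total printed at the bar. The count is 116 with the 15 arrays, 1269 without meat replicate 1, 0 without replicate 2 or 3, and 2112 with all 30 arrays.

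Only 1066 of the 25079 units carry a gene symbol, and 5 of these (0.469%) were called, all higher at week 9. Without replicate 1 there were 62 (5.82%), 37 higher and 25 lower. The 5 are GUCY1A1, SELENOP, DLC1, DLA-DQA1 and SEPHS2. Each was higher on all 4 meat time arrays, which the naming rule required. Each was also called without replicate 1 and with all 30 arrays, in fits that reuse arrays of the first.

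GUCY1A1 encodes the alpha subunit of the soluble guanylate cyclase, the enzyme through which nitric oxide raises cyclic GMP in platelets and smooth muscle. It changed by 0.54, 1.22, 1.39 and 1.56 on replicates 1 to 4. The value of replicate 1 was the lowest, and those of the other 3 arrays lay close together. The fitted change was 1.18 ± 0.16, or 2.27-fold (limma, adjusted p = 0.0169), and 1.32 ± 0.16 without replicate 1 (adjusted p = 0.00508). It was 1.00 with the meat arrays of slide 1 and 1.36 with those of slide 2 (adjusted p = 0.114 and 0.0371), and 1.19 ± 0.36 when no meat time array was used, from the kibble time and diet arrays alone.

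SELENOP encodes selenoprotein P, the plasma protein that carries selenium from the liver to other tissues. It changed by 0.99, 1.11, 0.88 and 1.12 on replicates 1 to 4. All 4 arrays, replicate 1 included, gave nearly the same value. The fitted change was 1.01 ± 0.17, or 2.02-fold (limma, adjusted p = 0.031), and 1.02 ± 0.19 without replicate 1 (adjusted p = 0.024). Its 2 other probes gave 0.62 and 1.13.

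SEPHS2 makes selenophosphate, the selenium donor for the synthesis of selenocysteine, and is itself a selenoprotein. It changed by 0.33, 0.55, 0.21 and 0.34 on replicates 1 to 4, so it was higher on each array by a small amount. The fitted change was 0.33 ± 0.06, or 1.26-fold (limma, adjusted p = 0.0429), and 0.33 ± 0.07 without replicate 1 (adjusted p = 0.0273). One of its other probes gave 0.25 and the other 0.05, and with the mean over its probes the call was lost (0.21, adjusted p = 0.0755).

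DLC1 encodes a GTPase-activating protein. It changed by 0.14, 1.1, 0.59 and 1.12 on replicates 1 to 4, with replicate 1 far below the others. The fitted change was 0.82 ± 0.15, or 1.77-fold (limma, adjusted p = 0.0429), and 0.97 ± 0.14 without replicate 1 (adjusted p = 0.0131). Its other probe gave 0.55.

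DLA-DQA1 encodes the alpha chain of the MHC class II molecule DQ. It changed by 0.51, 0.67, 0.58 and 0.47 on replicates 1 to 4, again with replicate 1 among the others. The fitted change was 0.50 ± 0.09, or 1.41-fold (limma, adjusted p = 0.0429), and 0.49 ± 0.10 without replicate 1 (adjusted p = 0.0273). Without any meat time array it was 0.18 ± 0.22. Class II genes have closely related sequences, so a probe may read more than 1 of them.

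The calls of these 5 genes sat near the threshold. Among 40 alternative fits the call was lost in 8 for GUCY1A1, 13 for SELENOP, 14 for DLA-DQA1, 16 for SEPHS2 and 18 for DLC1, while the direction was kept in each. Median centring in place of loess kept the call of GUCY1A1 alone and left 2 of the 116 calls.

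**Figure D3:**
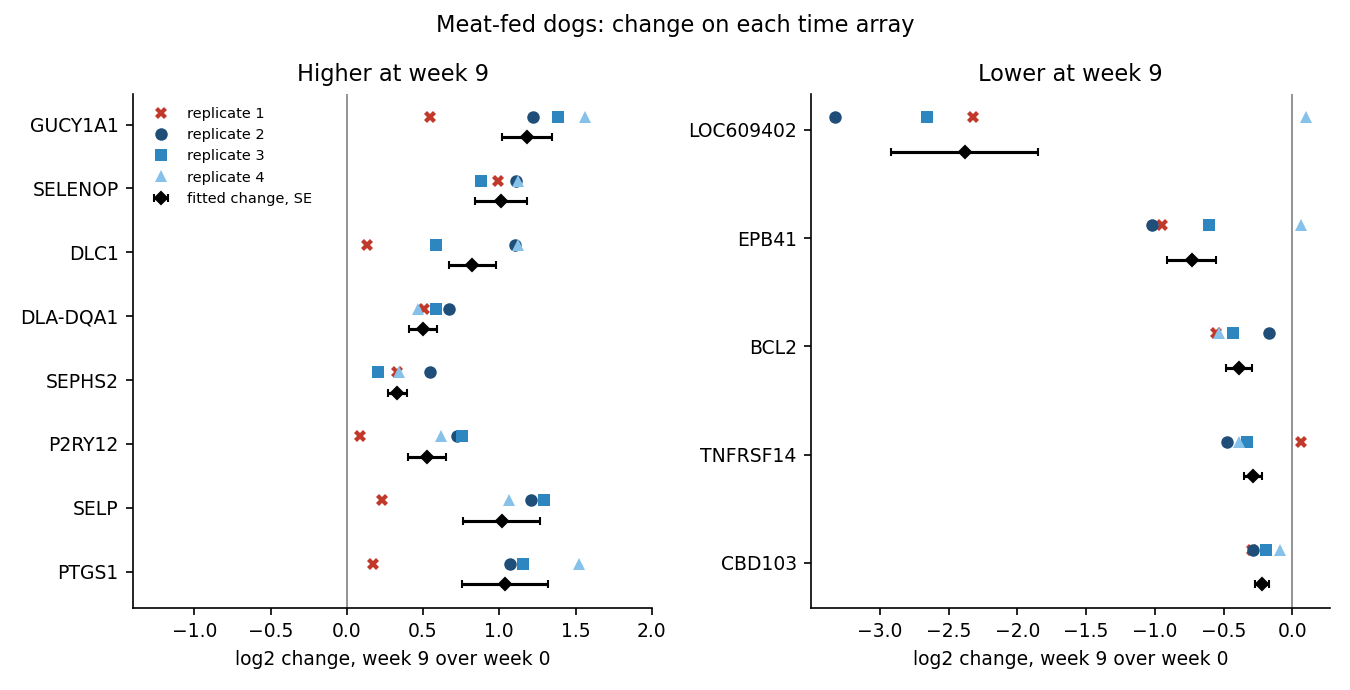
Log2 change of week 9 over week 0 on each of the 4 meat time arrays, with the dye effect removed (coloured symbols), and the fitted change with its SE (black), for 8 genes with higher and 5 with lower values. Replicate 1 (red cross) lies below the other arrays for GUCY1A1, DLC1, P2RY12, SELP and PTGS1 but among them for SELENOP and DLA-DQA1, and replicate 4 lies near 0 for LOC609402 and EPB41.

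Platelet genes had the highest median of the gene lists with at least 5 measured members. Of 22 listed platelet markers 10 were measured and 9 of these had a higher value at week 9, with a median of 0.63 against 0.0026 over all units. One of the 10, GUCY1A1, was called higher with the 15 arrays (0.303% of all units), 4 without replicate 1 (2.3% of all units) and 5 with all 30 arrays (3.9% of all units), and 7 were higher at an unadjusted p under 0.05, against 9.39% of all units. The list was written with earlier results of these data known, so its direction is a description.

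P-selectin, SELP, which platelets bring to their surface on activation, changed by 0.23, 1.21, 1.29 and 1.06 on replicates 1 to 4. The fitted change of SELP was 1.02 ± 0.25 (limma, adjusted p = 0.0609), and 1.19 ± 0.25 without replicate 1 (adjusted p = 0.0276). PTGS1, the cyclooxygenase from which platelets make thromboxane, changed by 0.17, 1.07, 1.15 and 1.52. PTGS1 had a fitted change of 1.04 ± 0.28 (limma, adjusted p = 0.072), and 1.23 ± 0.29 without replicate 1 (adjusted p = 0.035). P2RY12, the ADP receptor that clopidogrel blocks, changed by 0.09, 0.72, 0.75 and 0.62. For P2RY12 the fit gave 0.53 ± 0.12 (limma, adjusted p = 0.0583), and 0.62 ± 0.12 without replicate 1 (adjusted p = 0.0249). In all 3 genes replicates 2, 3 and 4 did not overlap with replicate 1, which was nearest to 0.

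The von Willebrand factor receptor chain GP1BA had a fitted value of 0.85 ± 0.27, the fibrinogen receptor chains ITGA2B and ITGB3 had 0.74 ± 0.30 and 0.33 ± 0.22, and clusterin (CLU), a granule protein, had 0.33 ± 0.14, none of them called. The other CLU probes gave 0.27, 0.19, 0.02 and 0.01. Without replicate 1 the values of GP1BA, ITGA2B, ITGB3 and CLU were 1.02, 0.89, 0.49 and 0.33, again with none called (limma, adjusted p = 0.0538 for GP1BA). The beta subunit partner of GUCY1A1, GUCY1B1, was at 0.04 ± 0.07, and von Willebrand factor itself, VWF, was at -0.09 ± 0.13. The list median was 0.13 on replicate 1 and 0.68, 0.73 and 0.98 on replicates 2, 3 and 4. In a bulk sample more platelets among the cells and more of these transcripts per platelet cannot be told apart.

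The genes of MHC class II presentation had higher values too, by less. Of 16 listed genes 10 were measured and all 10 had a higher value at week 9, with a median of 0.25 (0.27 without replicate 1). DLA-DQA1 was called (0.303% of all units were called higher), 2 were called without replicate 1 (2.3% of all units), and 7 were higher at an unadjusted p under 0.05 (9.39% of all units). The protease cathepsin S, CTSS, which trims the invariant chain of class II, changed by 0.55, 0.97, 0.47 and 0.48 on replicates 1 to 4. The fit for CTSS gave 0.56 ± 0.16 (limma, adjusted p = 0.0807, and 0.0799 without replicate 1).

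DLA-DQB1, the beta chain partner of DLA-DQA1, changed by 0.04, 0.66, 0.25 and 0.24. Its fitted change was 0.31 ± 0.10 (limma, adjusted p = 0.0968), and 0.37 ± 0.10 without replicate 1 (adjusted p = 0.0481). DLA-DMA, a chain of the molecule that loads peptides, changed by 0.15, 0.60, 0.10 and 0.32. It had a fitted change of 0.29 ± 0.09 (limma, adjusted p = 0.0818, and 0.0572 without replicate 1). The costimulatory ligand CD86 was at 0.49 ± 0.17, the peptide loading chain DLA-DMB at 0.21 ± 0.09 and DLA-DRA at 0.19 ± 0.09. Without replicate 1 these 3 were at 0.49, 0.22 and 0.20. Replicate 2 had the highest value in each of the genes CTSS, DLA-DQB1, DLA-DMA and CD86. The list median was 0.16, 0.52, 0.12 and 0.20 on replicates 1 to 4, so it was positive on each array.

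Cells that carry class II were read by few other markers. Of 15 dendritic cell markers 6 were measured, 5 with a higher value, and their median was 0.26. FLT3, a receptor of dendritic cell progenitors, changed by 0.15, 0.71, 0.31 and 0.52 and was called without replicate 1 (0.45 ± 0.10, limma, adjusted p = 0.0322) but not with it (0.40 ± 0.10, adjusted p = 0.0609). The B cell marker MS4A1 was at 0.49 ± 0.25 (adjusted p = 0.304). Of 7 monocyte markers 0 were called in limma and 1, CTSS, had an unadjusted p under 0.05, against 19.3% of all units. The phagocyte oxidase chain CYBB was at 0.34 ± 0.18 and the Fc receptor FCGR1A at -0.61 ± 0.34 (0.31 and -0.81 without replicate 1). Whether the share of these cells moved with the class II genes was not tested.

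**Figure D4:**
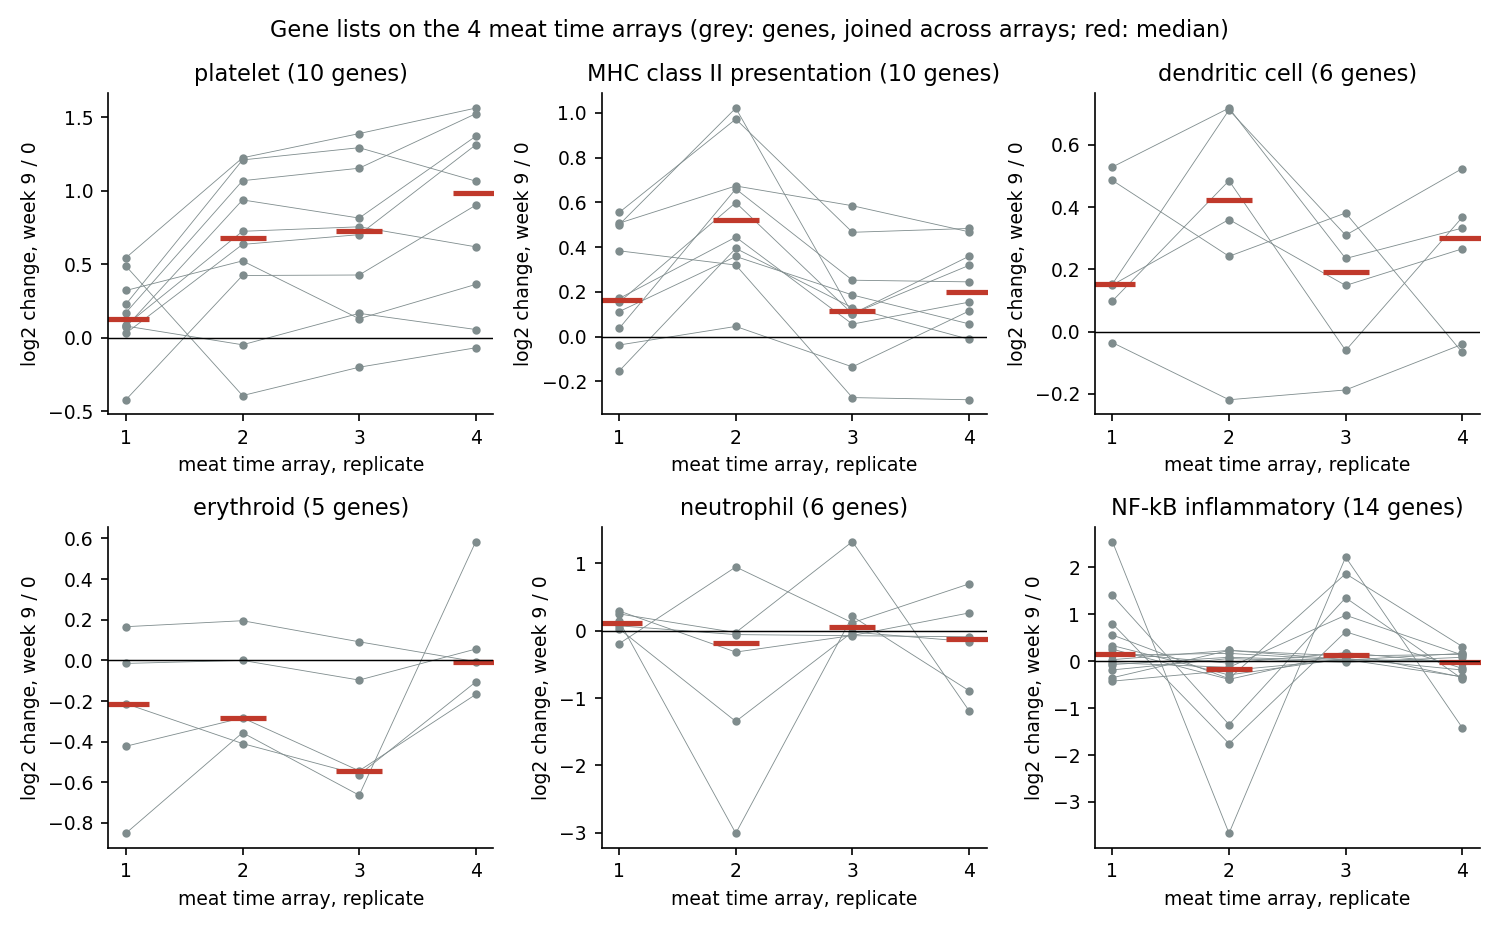
Log2 change of week 9 over week 0 on each of the 4 meat time arrays for the measured members of 6 gene lists (grey points, with a line joining the values of a gene) and their median (red bar). Platelet medians are 0.13 on replicate 1 and 0.68 to 0.98 on the others, class II medians are positive on each array, and single genes spread widely between arrays, S100A8 down to -3.01 and CXCL8 from -3.67 to 2.55.

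No named gene was called lower at week 9 with the 15 arrays, while 25 were called lower without replicate 1 (2.76% of all units). With the 15 arrays 130 of the 1066 named units were higher and 117 lower at an unadjusted p under 0.05 in limma. Over all 25079 units the counts were 2354 higher (9.39%) and 2474 lower (9.86%). Among the 5 named genes with the smallest p in this direction, the largest value was that of LOC609402. In the RefSeq table of assembly UU_Cfam_GSD_1.0 this gene lies beside the embryonic globin HBE1, with 1 gene between. LOC609402 changed by -2.32, -3.33, -2.66 and 0.10 on replicates 1 to 4. It was lower on 3 arrays and near 0 on replicate 4. The fitted change was -2.38 ± 0.54 (limma, adjusted p = 0.0565), and -2.40 ± 0.60 without replicate 1 (adjusted p = 0.0433), and the other probe of the gene gave -2.37. LOC609402 was at -1.585 ± 0.79 without the kibble time arrays and at -4.115 ± 1.01 without the meat time arrays.

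EPB41, which encodes a protein of the red cell membrane skeleton, changed by -0.94, -1.02, -0.61 and 0.06. Its fitted change was -0.73 ± 0.18 (limma, adjusted p = 0.0606, and 0.0593 without replicate 1), with its other probe at -0.55. EPB41 was at -0.48 ± 0.22 without the kibble time arrays and at -1.27 ± 0.34 without the meat time arrays. RHCE, which encodes a red cell Rh protein and was picked after its values were seen, had -0.58, -0.83, -1.04 and -0.0022. For RHCE the fit gave -0.68 ± 0.17 (limma, adjusted p = 0.0609), and -0.70 ± 0.19 without replicate 1 (adjusted p = 0.0494). All 3 of these genes were lower on replicates 1, 2 and 3 and near 0 on replicate 4.

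Of 17 erythroid markers 5 were measured, and 4 had a lower value, with a median of -0.26, 0 called in limma with or without replicate 1 and 2 lower at an unadjusted p under 0.05, against 9.86% of all units. The anion exchanger of red cells, SLC4A1, was at -0.35 ± 0.12 (limma, adjusted p = 0.115) and the red cell membrane protein GYPC at -0.26 ± 0.10, and without replicate 1 they were at -0.38 and -0.23. Among the 40 lower called units, which carry no symbol, 18 had their smallest change on replicate 4 and 17 on replicate 1. The most strongly lowered of these, probe A_11_P143283, read -2.13, -2.93, -2.55 and -0.09.

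The other 3 lower genes named by p were small in size. TNFRSF14, the receptor of the T cell ligands LIGHT and BTLA, changed by 0.06, -0.48, -0.33 and -0.39 on replicates 1 to 4. Replicate 1 was the array without a lower value, and the fitted change was -0.29 ± 0.07 with it (limma, adjusted p = 0.0583) and -0.36 ± 0.05 without it (adjusted p = 0.0131). BCL2, which blocks apoptosis, changed by -0.55, -0.17, -0.43 and -0.53, with a fitted change of -0.38 ± 0.09 (limma, adjusted p = 0.0608, and 0.062 without replicate 1). The beta-defensin CBD103 was at -0.22 ± 0.05 (adjusted p = 0.0596, and 0.0555 without replicate 1), but its probe was well above background in only 1 of the 4 week 9 channels, against 4 of 4 at week 0.

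Some T cell and neutrophil markers had lower values. CD4, which in dogs is carried by neutrophils as well as helper T cells, changed by 0.01, -1.88, -0.57 and -0.53. It fitted at -0.84 ± 0.26 (limma, adjusted p = 0.1) and at -1.02 ± 0.27 without replicate 1 (adjusted p = 0.0456). CTLA4, an inhibitory receptor of activated and regulatory T cells, changed by 0.14, -1.16, -0.82 and -0.95. The fit for CTLA4 gave -0.62 ± 0.18 (limma, adjusted p = 0.0817) and -0.79 ± 0.16 without replicate 1 (adjusted p = 0.0272), and its other probe gave -0.31. Both genes were lower on replicates 2, 3 and 4 and slightly above 0 on replicate 1.

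The other T cell genes measured had smaller values. CD28, the costimulatory receptor of T cells, was at -0.01 ± 0.06, the activation ligand CD40LG at 0.0008 ± 0.15 and the IL-2 receptor chain IL2RA at 0.33 ± 0.11 (limma, adjusted p = 0.108). Of 10 measured T cell activation genes 0 were called in limma. At an unadjusted p under 0.05, 1 was higher and 1 lower, against 9.39% and 9.86% of all units. Without replicate 1 CTLA4 was called lower, as were 2.76% of all units. Among the 9 cytotoxic and NK markers limma called 0, and 0 had an unadjusted p under 0.05, against 19.3% of all units. The perforin gene PRF1 was at 0.20 ± 0.14 and CD8A at 0.25 ± 0.17.

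S100A8, a calcium-binding protein abundant in neutrophils and monocytes, changed by 0.14, -3.01, 0.21 and -0.89 on replicates 1 to 4. The chemokine receptor CXCR2 changed by 0.03, -1.35, -0.02 and -0.16. In both genes replicate 2 was far below the other arrays. Of 6 neutrophil markers 0 were called in limma and 2 were lower at an unadjusted p under 0.05, against 9.86% of all units. These were S100A8 at -1.25 ± 0.52 (limma, adjusted p = 0.203) and CXCR2 at -0.53 ± 0.24. Both values depended on the arrays in the fit. Without the kibble time arrays S100A8 was at -0.38 ± 0.725 and CXCR2 at -0.16 ± 0.32. Without the meat time arrays S100A8 was at -3.13 ± 0.88 and CXCR2 at -1.32 ± 0.45. Lactoferrin (LTF, -0.16 ± 0.26) and the granule peptide CAMP (0.09 ± 0.49) had errors larger than their values. Without replicate 1 the values of S100A8 and CXCR2 were -1.55 and -0.65 (adjusted p = 0.101 and 0.142). On replicate 2 the CD4 value was also the lowest. The part of neutrophils in the CD4 value was not tested.

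Inflammatory genes varied widely between the meat time arrays. The neutrophil chemokine CXCL8 changed by 2.55, -3.67, 2.22 and -1.42 on replicates 1 to 4. The cytokine IL1B changed by 1.40, -1.35, 1.35 and -0.38, and the inducible cyclooxygenase PTGS2 by 0.80, -1.76, 0.63 and -0.15. In each of these genes replicates 1 and 3 were positive and replicates 2 and 4 negative. Their fitted changes were -0.52 ± 0.85, 0.0015 ± 0.44 and -0.37 ± 0.37. Of 14 measured NF-kB targets limma called 0, with 0 at an unadjusted p under 0.05, against 19.3% of all units. Without replicate 1 the values of CXCL8, IL1B and PTGS2 were -1.20, -0.30 and -0.62 (limma, adjusted p = 0.437, 0.761 and 0.352).

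Among genes of the oxidative stress response, 10 of 23 were measured, 1 was called (SELENOP, against 0.463% of all units called) and the median was 0.12. The glutathione peroxidase GPX1, a selenoprotein abundant in red cells, changed by -0.80, -0.48, -0.54 and 0.15. It fitted at -0.43 ± 0.16 (limma, adjusted p = 0.149, and 0.235 without replicate 1), and like EPB41 it was lower on replicates 1 to 3. The peroxiredoxin PRDX1 was at 0.23 ± 0.09 (adjusted p = 0.191) and the haem oxygenase HMOX1 at 0.28 ± 0.11 (adjusted p = 0.195), each higher on all 4 arrays. Without replicate 1 they were at 0.27 and 0.32 (adjusted p = 0.128 and 0.14).

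Genes of fuel use showed small values. Of 6 genes of fatty acid oxidation and PPAR signalling 0 were called in limma. At an unadjusted p under 0.05 there was 1, against 19.3% of all units. It was PPARG, the fatty acid sensing receptor, at 0.26 ± 0.10 (limma, adjusted p = 0.179, and 0.226 without replicate 1). The other PPARG probe gave 0.08. CPT1A, which brings fatty acids into mitochondria, was at 0.09 ± 0.11, and the uncoupling protein UCP2 at -0.21 ± 0.10 (adjusted p = 0.273). Of 5 glycolysis genes limma called 0, with 0 at an unadjusted p under 0.05 (19.3% of all units), and GAPDH was at -0.21 ± 0.15. Of 4 measured genes of oxidative phosphorylation 0 were called in limma with replicate 1 and 1 was called higher without it (2.3% of all units). This was the ATP synthase chain ATP5F1A (0.30, limma, adjusted p = 0.0375, against 0.23 ± 0.08 with replicate 1). The 19 measured ribosomal protein genes lay between -0.13 and 0.19 with a median of 0.03 and 0 calls in limma. At an unadjusted p under 0.05, 1 was higher and 1 lower, against 9.39% and 9.86% of all units.

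The second comparison asked whether the change over 9 weeks differed between the diets. In limma 0 of 25079 units (0%) were called for a difference between the meat and the kibble change, with a smallest adjusted p of 0.591 and 1719 units (6.85%) at an unadjusted p under 0.05. The median SE of such a difference was 0.09 on the log2 scale, and 15 arrays limit its precision. Leaving out 1 of the week 0 diet arrays (meat in Cy3, replicate 2) gave 12 calls, and each other alternative that could be fitted gave 0. The kibble change itself had 2713 calls (10.8%), but 2 counts of calls do not compare the diets, and both changes come from 1 fit whose arrays they share.

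The platelet genes had like values on both diets. GUCY1A1 changed by 1.18 ± 0.16 on meat and 1.08 ± 0.16 on kibble (difference 0.10 ± 0.21). SELP had 1.02 and 1.13, PTGS1 1.04 and 1.13, and P2RY12 0.53 and 0.58, with differences of -0.11 ± 0.32, -0.09 ± 0.36 and -0.05 ± 0.16. The list median was 0.63 on meat and 0.66 on kibble. With errors of 0.16 to 0.36, a difference in either direction is not excluded by these values.

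LOC609402 and EPB41 had lower values on kibble too. LOC609402 was at -2.38 ± 0.54 on meat and -4.07 ± 0.54 on kibble (difference 1.69 ± 0.68, unadjusted p = 0.0271, limma adjusted p = 0.725). On kibble its 4 arrays read -4.08, -4.26, -4.28 and -5.00, all below the lowest meat array. EPB41 was at -0.73 ± 0.18 and -0.86 ± 0.18.

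SELENOP and the class II genes had lower values on kibble, without a call for the difference. SELENOP read 0.84, 0.07, 0.35 and 0.03 on the 4 kibble time arrays, each below the lowest meat array. The kibble change was 0.34 ± 0.17 and the difference 0.67 ± 0.22 (unadjusted p = 0.0078, limma adjusted p = 0.725). DLA-DQB1 was at -0.04 ± 0.10 on kibble (difference 0.36 ± 0.12, adjusted p = 0.725) and DLA-DMA at 0.02 ± 0.09 (difference 0.28 ± 0.11, adjusted p = 0.725), whereas DLA-DQA1 was at 0.29 ± 0.09 (difference 0.20 ± 0.12, adjusted p = 0.778). DLA-DMB was at -0.19 ± 0.09 on kibble (difference 0.40 ± 0.12, unadjusted p = 0.00433, limma adjusted p = 0.725). CTSS and CD86 were higher at week 9 on kibble too, at 0.41 ± 0.16 and 0.34 ± 0.17, with differences of 0.15 ± 0.20 and 0.14 ± 0.21. The list median was -0.01 on kibble against 0.25 on meat.

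The named genes with the smallest p for a difference between the diets were 3 with a higher and 3 with a lower value on meat, all with a limma adjusted p of 0.682 or above. CD1B, a molecule that presents lipid antigens on dendritic cells, changed by 0.23, 0.76, 0.34 and 0.57 on the meat arrays. On the kibble arrays it read -0.14, -0.15, 0.16 and 0.30, so the groups overlap. The difference was 0.51 ± 0.13 (unadjusted p = 0.00205, limma adjusted p = 0.725). In the meat-fed dogs CD1B changed by 0.51 ± 0.11 (adjusted p = 0.0516), and it was called without replicate 1 (0.57 ± 0.11, adjusted p = 0.0249).

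CD1A8, of the same family, changed by 0.15, 0.36, 0.15 and 0.27 on the meat arrays and by -0.07, -0.26, -0.06 and -0.04 on the kibble arrays. The 4 meat values and the 4 kibble values lie on opposite sides of 0, and the difference was 0.35 ± 0.09 (unadjusted p = 0.00102, limma adjusted p = 0.725). CD1A8 was picked by a fit that holds these arrays, so their separation partly follows from the selection. SMOC2, a secreted matrix protein, was at -0.04 ± 0.05 on meat and -0.39 ± 0.05 on kibble, with a probe well above background in 2 of 4 week 9 and 4 of 4 week 0 meat channels (difference 0.34 ± 0.07, adjusted p = 0.682). The olfactory receptor OR2T11, the chaperone DNAJC25 and the gastric lipase LIPF had differences of -0.23 ± 0.09, -0.27 ± 0.08 and -0.14 ± 0.06 (adjusted p = 0.725 for each). The LIPF probe was well above background in 1 of 4 week 9 and 3 of 4 week 0 meat channels, and median centring turned the DNAJC25 difference to 0.038.

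**Figure D5:**
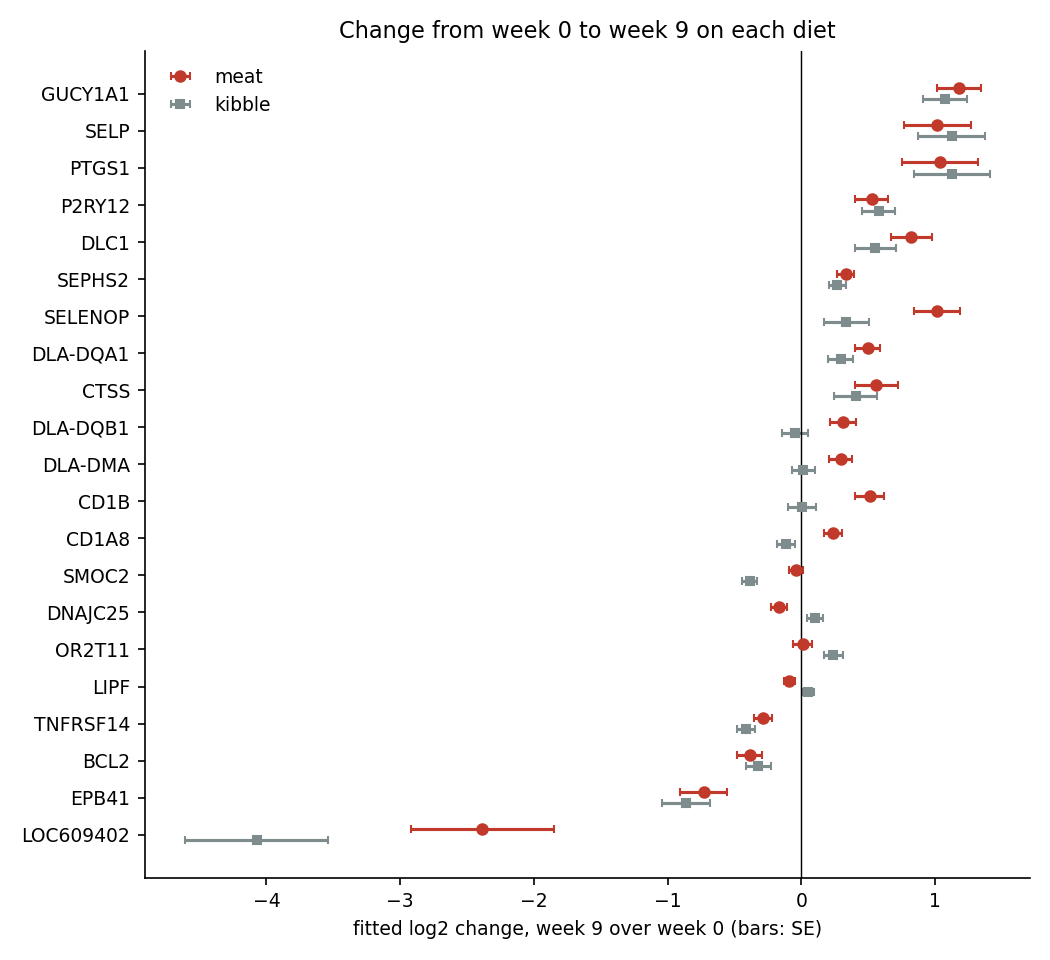
Fitted log2 change of week 9 over week 0 in meat-fed dogs (red circles) and kibble-fed dogs (grey squares), with SE, for 21 genes. The platelet genes at the top have like values on both diets, SELENOP (1.01 and 0.34) and CD1B (0.51 and 0.0045) have higher values on meat, and LOC609402 has a lower value on kibble (-4.07) than on meat (-2.38), with no difference between the diets called.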

How the data were processed

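PBMC RNA of dogs was measured on 30 Agilent arrays. Per the labels each hybridised sample started from 200 ng of RNA and a group had 6 biological replicates. The authors' scanner files, per the file headers from Agilent Feature Extraction 10.10.1.1, give the median intensity of each spot and its local background in both dyes. The authors also deposited normalised log2 ratios, whose normalization is not given in the sources used here. These served as an alternative, and on the 15 arrays they correlated with those computed here at 0.834 to 0.991.

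Control spots and 606 faulty spots on the 15 arrays were left out, and 0 spots were saturated. The median signal was used, since the mean signal is not in the columns held here. Background was corrected by normexp (offset 50) and ratios were normalised by loess within arrays. A probe had to be well above background in 7 or more of the 30 channels (30730 of 43603 did), and the brightest per gene or accession was taken, which gave 25079 units. Symbols came from RefSeq accessions: 1355 of 36612 systematic names matched, so many known genes are not named here.

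A linear model in limma 3.58.1 (R 4.3.3, with version 1.17.8 of the data.table package) had terms for the kibble change, the diet difference at each week and a dye effect per unit, leaving 11 residual degrees of freedom. P-values are two-sided, with Benjamini-Hochberg adjustment over all units and a threshold of 0.05. The median SE of the meat change was 0.07, and more arrays would be needed for smaller errors. In data simulated for the meat change 79 of 100 changes of 0.5 and 92 of 100 changes of 1 were recovered. There were 8 false calls among the unchanged rest of the 25079 units. The simulation gave a unit the same spread on every array, with independent normal errors. It holds no array like replicate 1, so these rates do not carry over to the real arrays.

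The arrays, the gene lists and the rules were chosen with earlier results of these data known. Named are the 12 largest passing genes per direction with 1 sign on all 4 arrays, or, where fewer than 5 pass, those and the 5 smallest p, up to 4 members of each list with a passing member, and for the diet difference those passing and the 3 smallest p per direction. Other genes are list members, or were chosen after their values were seen (among them RHCE, CD4, CTLA4, FLT3 and CD86). Alternatives were the background correction, Feature Extraction signals, deposited values, median centring, scaling, the filter, faulty spots kept, the arrays in the fit, the dye term, the slide, the replicate number as a block, moderation, array weights, the probe rule and leaving out each array. Fits without the meat time arrays, and 3 further fits without replicate 1, were added after the data were seen.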

Additional observations from a re-analysis of the deposited data

Results flagged for a closer look

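Quality measures set replicate 1 of the meat time arrays apart from the other 3 by a gap larger than chance gives in about 1 of 20 groups of 4: 42703 detected probes in Cy3, 43411 in Cy5, 437 faulty spots, and median signals of 260 in Cy3 and 489.5 in Cy5. Among the named genes OR2T11 was the 1 whose value on an array stood apart in this way, with 0.285 on replicate 1 against -0.12 to -0.07 on the others. By this rule 33 values were tested, so some flags can arise by chance. CD1A8 went opposite ways on the diets on every array, higher on the 4 meat and lower on the 4 kibble arrays. It was named for its small p in a fit that holds these arrays, so this partly follows from the selection. The difference was 0.354 ± 0.09 in the limma fit, with an unadjusted p of 0.00102 and an adjusted p of 0.725.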

How the results depend on the processing

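The count of 116 called units (76 higher, 40 lower) moved with most choices. It was 664 with no background correction, 36 with Feature Extraction signals (23 higher, 13 lower), 697 with the deposited values (355 higher, 342 lower), 2 with median centring (2 higher, 0 lower), 54 with scaling, 2112 with all 30 arrays, 2702 with all 30 but meat replicate 1, 696 with no dye term, 799 with array weights, 718 with array weights and meat replicate 1 left out, 1469 with replicate 1 of the meat and kibble time arrays left out, 6 and 0 with the meat arrays of slide 1 or of slide 2 left out, and 832 with the replicate number as a block. It was 0 without the kibble time arrays, without the meat time arrays, with the meat time arrays alone, and with a dye term per slide; there 2741, 1296, 5357 and 3885 units had an unadjusted p under 0.05 in limma. The cause was not tested. Between 85 and 149 units were called with no filter, a filter of 15 channels, faulty spots kept, the slide as a random block, trend and robust moderation, every probe (30730 tested) and the mean over probes. Leaving out each of the 15 arrays gave 0 to 1269 calls, and 0 to 12 for the difference between the diets. Same-numbered meat and kibble time arrays correlated at r = 0.16, 0.12, 0.09 and 0.08, and arrays with unlike numbers at -0.54 to 0.43. Whether the numbers mark a pairing of the samples was not tested. HMOX1 was at -0.047 (adjusted p = 1) without the meat time arrays, and the DNAJC25 difference at 0.038 (adjusted p = 0.941) with median centring. The other 18 genes that the naming rule took for their change kept their direction in each alternative. Other list members did not all do so: GYPC, CYBB and CPT1A were at 0.20, -0.07 and -0.09 without the meat time arrays.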

Other observations

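Values of gene families were read after the named genes had been seen, so they have no test. Of 24 selenoprotein genes 18 were measured, 8 with a higher and 10 with a lower value, and the median was -0.009 with a range of -0.58 to 1.01. SELENOP and SEPHS2 were the 2 called, both higher, against 0.303% of all units. At an unadjusted p under 0.05, 3 were higher and 3 lower (9.39% and 9.86% of all units). The third higher one was SELENOF, an endoplasmic reticulum selenoprotein, at 0.14 ± 0.04 (limma, adjusted p = 0.0972). The lower ones were GPX1, MSRB1 (-0.58 ± 0.24) and SELENOO (-0.16 ± 0.06). SELENOO was called lower without replicate 1 (limma, adjusted p = 0.0273). Of 4 measured CD1 genes CD1B, CD1A6 and CD1A8 had higher values and CD1C a lower one (-0.09 ± 0.05), with a median of 0.32 on meat and -0.09 on kibble.

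Interferon genes differed between arrays. MX1, an antiviral GTPase, changed by -0.23, 0.82, -1.30 and -0.39 on meat replicates 1 to 4, and OAS1, which makes the activator of RNase L, by -0.30, -0.65, -1.37 and -0.16. Of 7 measured members limma called 0, with 1 at an unadjusted p under 0.05, against 19.3% of all units (OAS1, -0.66 ± 0.28, adjusted p = 0.22). The other OAS1 probe gave -0.18. Replicate 3 was the lowest array for both genes.

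Some large lower values rested on 1 probe of several. With all 4 meat time arrays MYH7, the beta myosin heavy chain, read -1.64 ± 0.45 on its brightest probe and -0.06 to 0.0048 on its others, and VLDLR, a lipoprotein receptor, read -1.01 ± 0.27 on its brightest and -0.03 on the other. Where the genes named for their change have other probes, 16 of 16 such probes had the direction of the one reported.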
